A study of Mus musculus with 8 samples.

Results

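Secreted antagonists of Wnt signaling were compared between the mouse cornea and limbus, in a study of the niche that holds the stem cells of the corneal epithelium. They are Sfrp1, Sfrp2, Sfrp4, Sfrp5, Frzb, Dkk1, Dkk2, Dkk3 and Wif1, chosen by symbol, and all 9 were found among the 23420 named genes of the deposited table. Eyes came from wild type C57BL/6J mice, 8 weeks of age, with no treatment. From 16 eyes, limbal rims (the ring between the cornea and the white of the eye, the site of that niche) were cut from corneal buttons, and each tissue was pooled before RNA was extracted from it whole. The table holds 1 library's worth of reads per tissue, 26104317 on named genes in the cornea and 21182025 in the limbus, although the labels name 4 samples per tissue. No difference between the tissues therefore has a replicate check, and no p-value is given.

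Wnt proteins are lipid-bearing ligands that bind Frizzled receptors together with the co-receptors Lrp5 and Lrp6, and so keep beta-catenin from being broken down. Secreted frizzled-related proteins (the Sfrp genes and Frzb) carry a domain like that of the Frizzled receptors and bind Wnt proteins outside the cell, as does Wif1, the Wnt inhibitory factor. The Dickkopf proteins Dkk1 and Dkk2 act on the other side and occupy Lrp5 and Lrp6, with Kremen proteins as partners. In the eye, Dkk2 is known to be needed for the corneal epithelium to keep its identity.

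Values are reads per library, worked back from the table. The ratio of limbus to cornea was taken on normalized reads, that is reads over the library's size factor (1.03 for the cornea, 0.967 for the limbus), and is given as log2, positive when higher in the limbus. Intervals are exact 95% intervals that cover counting error only, since each tissue has 1 library. Reads copied in library preparation and not marked by molecular identifiers are not independent molecules, so the intervals may be too narrow even for counting error. A gene was called higher in a tissue beyond counting error when the interval of its log2 ratio left out 0, and at least 2-fold higher when the log2 ratio was also 1 or more in size. For the calls, a library with at most 3 reads was raised to 3, and the lower end of the interval then stands as the bound. The ratio of a gene with 1 to 3 reads in a library is printed from the reads as counted. In whole tissue, fewer cells of a type and less RNA per cell cannot be told apart.

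Promoter sequences are given for Sfrp2 and Wif1, which were far higher in the limbus, and for Dkk1 and Dkk2, relatives whose RNA went opposite ways. Each is the 300 bases around the start that RefSeq gives, 250 before and 50 after it, from the RefSeq promoter table of GRCm38.p6. Of the 9 genes, 6 had an entry. The GENCODE annotation, used for the gene positions, starts at the same base for Sfrp2, Sfrp5 and Dkk2 but further upstream by 169 bases for Dkk1, 44 for Wif1 and 229 for Frzb, so parts of those windows lie within the GENCODE gene. Capitals mark the letters of 2 motifs searched on both strands: the TCF/LEF motif that beta-catenin's partner factors bind, and the TATA box, searched as TATAAA. The TCF/LEF motif was searched as CTTTGAA, or else as CTTTGAT, or again as CTTTGTA, or lastly as CTTTGTT. The Sfrp2 promoter lies at chr3:83766071-83766370 on the plus strand, that of Wif1 at chr10:121033754-121034053 on the plus strand, that of Dkk1 at chr19:30549447-30549746 on the minus strand, and that of Dkk2 at chr3:132085042-132085341 on the plus strand.
Sfrp2: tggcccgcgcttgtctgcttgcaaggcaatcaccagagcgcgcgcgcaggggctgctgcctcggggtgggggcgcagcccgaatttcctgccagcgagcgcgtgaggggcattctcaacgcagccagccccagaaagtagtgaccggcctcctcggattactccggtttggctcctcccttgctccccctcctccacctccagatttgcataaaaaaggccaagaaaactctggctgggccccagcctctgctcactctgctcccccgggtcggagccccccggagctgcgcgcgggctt
Wif1: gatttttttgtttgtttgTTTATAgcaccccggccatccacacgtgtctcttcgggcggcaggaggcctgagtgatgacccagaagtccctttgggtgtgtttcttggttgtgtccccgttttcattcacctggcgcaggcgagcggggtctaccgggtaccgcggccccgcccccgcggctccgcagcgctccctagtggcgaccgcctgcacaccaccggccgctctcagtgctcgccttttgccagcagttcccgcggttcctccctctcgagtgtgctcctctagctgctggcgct
Dkk1: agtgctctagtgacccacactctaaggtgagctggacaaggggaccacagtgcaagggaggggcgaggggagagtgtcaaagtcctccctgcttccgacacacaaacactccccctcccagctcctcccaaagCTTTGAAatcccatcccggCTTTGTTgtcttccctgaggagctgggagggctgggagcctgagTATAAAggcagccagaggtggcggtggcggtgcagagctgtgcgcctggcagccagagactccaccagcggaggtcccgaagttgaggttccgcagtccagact
Dkk2: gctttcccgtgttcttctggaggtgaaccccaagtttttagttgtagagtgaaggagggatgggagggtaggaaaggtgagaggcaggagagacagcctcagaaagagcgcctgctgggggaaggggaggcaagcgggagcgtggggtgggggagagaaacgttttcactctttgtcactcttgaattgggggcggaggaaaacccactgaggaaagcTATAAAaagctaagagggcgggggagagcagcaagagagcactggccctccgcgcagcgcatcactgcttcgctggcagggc

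The Dkk1 window held CTTTGAA 117 bases and CTTTGTT 98 bases upstream of the RefSeq start, and TATAAA 54 bases upstream of it, all 3 downstream of the GENCODE start. Of the 6 antagonists searched, Dkk1 alone held a TCF/LEF motif in this window. Over all 32544 promoters of the table, 16.9% held at least 1 of the 4 TCF/LEF spellings. TATAAA stood 32 bases upstream of the RefSeq start in Dkk2, and its reverse, TTTATA, 232 bases upstream in Wif1, against 13.6% of all promoters with the motif. The windows of Sfrp2, Sfrp5 and Frzb held neither motif. CpG dinucleotides numbered 25 in Wif1, 22 in Sfrp2, 20 in Frzb, 15 in Sfrp5, 11 in Dkk2 and 9 in Dkk1, and 7 in the median promoter. A match describes letters and not a bound site.

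Of the antagonists that bind Wnt proteins, all but Frzb were higher in the limbus, and the most abundant Dickkopf genes were higher in the cornea. Beyond counting error, 6 of the 9 genes were higher in the limbus (Sfrp1, Sfrp2, Sfrp4, Sfrp5, Dkk1 and Wif1), where 34.0% of the 15572 genes tested were. Dkk2 and Dkk3 were higher in the cornea, where 36.5% of genes were, and Frzb gave no call. At least 2-fold, 5 genes were higher in the limbus (Sfrp2, Sfrp4, Sfrp5, Dkk1 and Wif1) against 15.8% of genes, and 1, Dkk3, was higher in the cornea against 7.83% of genes. The median log2 ratio over the 9 genes was 1.29, beside 0.01 over all genes tested. Sfrp4, Sfrp5 and Frzb entered only through their limbal reads and could be called in 1 direction only. The other 6 antagonists passed 3 reads in each library. Of these 6, 4 had a limbal excess beyond counting error and 2 a corneal one, against 33.2% and 40.6% of the 13862 genes that passed likewise. At least 2-fold, the numbers were 3 and 1, against 14.7% and 8.66% of those genes, and the median log2 ratio was 0.77 beside -0.05. Scaling to total reads moved every log2 ratio by 0.21 towards the limbus and split the calls over all genes into 45.1% with a limbal and 26.7% with a corneal excess, but no antagonist changed its direction or call.

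**Figure D1:**
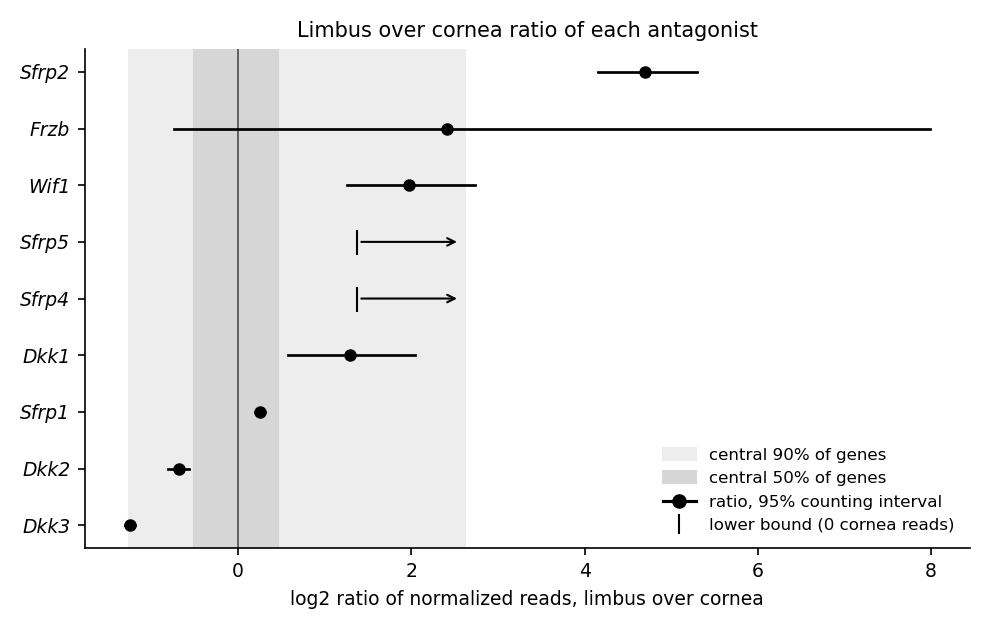
Log2 ratio of normalized reads, limbus over cornea, for each of the 9 antagonists; dots with lines are ratios with exact 95% counting intervals, ticks with arrows are lower bounds for genes at 0 reads in the cornea, and grey bands run from the 25th to the 75th and from the 5th to the 95th percentile of 13862 genes. Sfrp2 at 4.70 lies right of the outer band, Dkk3 at -1.25 sits at its left edge (-1.26), and the line of Frzb crosses 0.

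Sfrp2 showed the widest difference among the antagonists with reads in both libraries. The gene, which encodes a Wnt-binding protein made by many connective tissue fibroblasts, lies at chr3:83766321-83774316 on the plus strand of GRCm38, with 2.15 kb of exon in 5 blocks. The table gave 28 corneal and 681 limbal reads. Sfrp2 was thus among the scarce antagonists of the cornea and the common ones of the limbus. The ratio was 26.0-fold (17.8 to 39.4), or 4.70 (4.16 to 5.30) as log2, and 99.4% of the 13862 genes lay below it. An antisense gene, Gm26771, overlaps Sfrp2 on the opposite strand, and whether counting used the strand is not given in the sources used here, so reads of the 2 genes cannot be told apart. No other antagonist overlapped an annotated gene.

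Sfrp1, a secreted protein with a Frizzled-like domain, differed little. It lies at chr8:23411502-23449632 on the plus strand, with 3 exon blocks of 4.37 kb. The cornea had 4434 reads and the limbus 4961, which made 4289 and 5128 after the size factors. With so many reads the interval was narrow, and the 1.20-fold excess in the limbus (1.15 to 1.25; log2 0.26, 0.20 to 0.32) lay beyond counting error but well under 2-fold. Under total reads it was 0.46. The ratio of Sfrp1 exceeded that of 67.5% of genes.

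Sfrp4 and Sfrp5 were found in the limbal library only. Sfrp4, at chr13:19623104-19632994 on the plus strand with 6 exon blocks of 4.18 kb, had 0 corneal and 24 limbal reads. Sfrp5, at chr19:42197971-42202252 on the minus strand with 3 exon blocks of 1.90 kb, had the same numbers, 0 and 24, which 7 named genes share. Each was at least 2.60-fold higher in the limbus (log2 bound 1.38) with the cornea set to 3 reads. With a limit of 10 reads the log2 bound was 0.24, and with a 99% interval it also fell short of 2-fold. The bound is loose because 24 reads is a small number, and the limit of 3 reads lies at a corneal level of 0.0275 RPKM for Sfrp4 and 0.0605 RPKM for Sfrp5. The exact interval of 0 reads reaches 0.0338 RPKM for Sfrp4 and 0.0744 RPKM for Sfrp5. RPKM stands for a gene's reads divided by its kilobases of exon and by the library's reads on named genes in units of 1000000.

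Frzb, also called Sfrp3 and studied mainly in cartilage, was near the limit of detection. It lies at chr2:80411970-80447625 on the minus strand with 6 exon blocks of 3.24 kb. It had 1 corneal and 5 limbal reads, a pair shared by 45 genes. The ratio of the reads as counted was 5.34-fold with an interval of 0.598 to 253, and with the cornea raised to 3 reads the log2 ratio was 0.83, so no difference between the tissues was detectable.

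Dkk3 was the most abundant antagonist of the cornea. It encodes a divergent Dickkopf protein whose action on Wnt signaling is less clear than that of its relatives, and lies at chr7:112116017-112159057 on the minus strand with 8 exon blocks of 3.36 kb. The cornea had 8883 reads and the limbus 3503. Dkk3 was 2.37-fold higher in the cornea (2.28 to 2.47), a log2 ratio of -1.25 (-1.30 to -1.19), and 5.11% of genes had a lower ratio. Total-read scaling gave -1.04, still past 2-fold.

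Dkk2, a classical inhibitor that binds Lrp5 and Lrp6, followed Dkk3 in direction but less far. It lies at chr3:132085292-132180304 on the plus strand with 4 exon blocks of 3.71 kb. Corneal reads numbered 1494 and limbal reads 870, a 1.61-fold excess in the cornea (1.48 to 1.75). The log2 ratio was -0.68 (-0.81 to -0.56), or -0.48 under total reads, and 17.8% of genes lay below it.

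Dkk1 went the other way from its relatives. This inhibitor, itself switched on by beta-catenin in many tissues, lies at chr19:30545863-30549665 on the minus strand with 4 exon blocks of 2.43 kb. Only 24 corneal and 55 limbal reads were found. The ratio was 2.45-fold (1.49 to 4.14), a log2 ratio of 1.29 (0.58 to 2.05), higher than that of 87.3% of genes. Few reads stand behind it, and the interval reaches from under 2-fold to over 4-fold.

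Wif1, which binds Wnt proteins through its own WIF domain, had 21 corneal and 77 limbal reads. It lies at chr10:121033960-121100650 on the plus strand with 10 exon blocks of 2.43 kb. Its ratio was 3.92-fold (2.39 to 6.69), a log2 ratio of 1.97 (1.26 to 2.74), and 91.7% of genes lay below it. Wif1 was scarce in both tissues all the same.

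Levels of different genes were compared per length, in RPKM, within a tissue. In the cornea Dkk3 stood at 101 (99.2 to 103), 2.61 times Sfrp1 at 38.9 (37.7 to 40.0). Dkk2 followed at 15.4 (14.7 to 16.3), and then came a gap of 31.0 times to Sfrp2 at 0.498 (0.331 to 0.720). Sfrp2, Dkk1 (0.379) and Wif1 (0.331) did not differ beyond their counting intervals in the cornea. Frzb lay 28.0 times under Wif1 at 0.0118, and its interval met those of Sfrp4 and Sfrp5 at 0. The cornea thus had 3 common antagonists, 3 scarce ones and 3 at or near the limit of detection.

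The limbus had a different order. Sfrp1 stood highest at 53.6 (52.1 to 55.1), 1.09 times Dkk3 at 49.2 (47.6 to 50.9), a small step that the counting intervals still set apart. Sfrp2 came next at 14.9 (13.8 to 16.1), above Dkk2 at 11.1 (10.4 to 11.8), so that 4 antagonists were common in the limbus. Wif1 at 1.50, Dkk1 at 1.07, Sfrp5 at 0.596 and Sfrp4 at 0.271 followed, with overlapping counting intervals between neighbors, and Frzb was last at 0.0729. Taking the longest transcript in place of all exons changed no rank in either tissue. Sfrp1, Sfrp5, Dkk1, Dkk2 and Dkk3 have 1 annotated transcript each, so their own levels could not change.

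**Figure D2:**
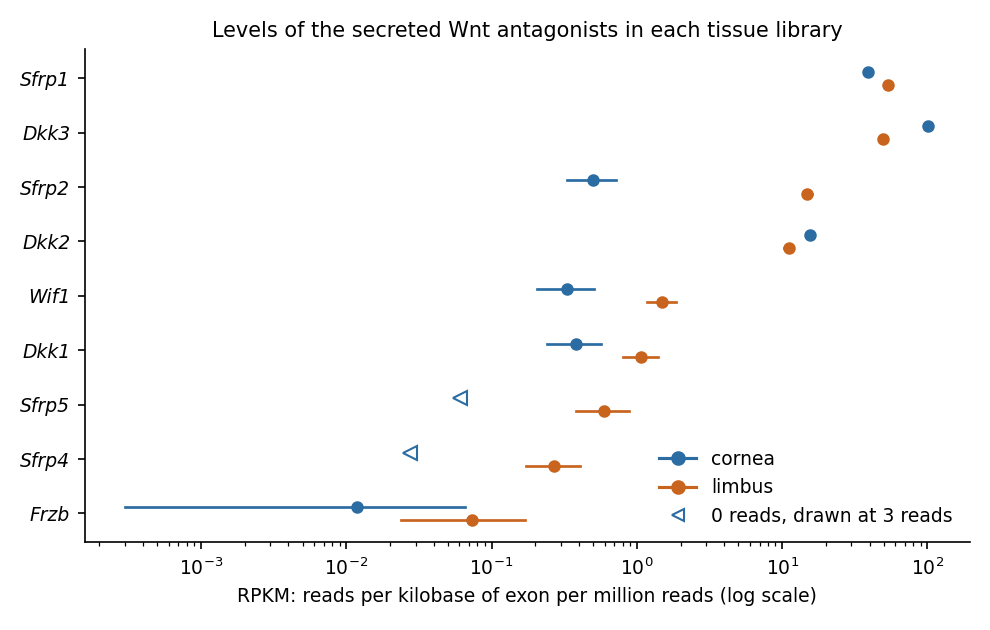
Level of each antagonist in RPKM (log axis) in the cornea (blue) and limbus (orange), with exact 95% counting intervals as lines; open triangles mark 0 reads, drawn at the level of 3 reads. Dkk3 is highest in the cornea at 101 and Sfrp1 in the limbus at 53.6, and the 2 intervals of a gene overlap for Frzb alone. RPKM follows total reads on named genes and not the size factors.

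Ratios of antagonists within a library do not depend on how the libraries were scaled. Per kilobase, Dkk3 was 2.61 times Sfrp1 in the cornea and 0.919 times in the limbus, that is 0.352 of the corneal ratio (0.333 to 0.373). Sfrp1 was 78.0 times Sfrp2 in the cornea but 3.59 times in the limbus, so the ratio in the limbus was 0.0460 of that in the cornea (0.0303 to 0.0673). Within the Dickkopf genes, Dkk3 over Dkk2 fell from 6.56 to 4.44, or to 0.677 of the corneal ratio (0.617 to 0.744). Dkk2 over Dkk1 fell more steeply, from 40.8 to 10.4, or to 0.254 (0.149 to 0.421). Sfrp2 over Wif1, both higher in the limbus, went from 1.50 to 9.97, a 6.63-fold shift (3.39 to 12.7). Sfrp1 over Dkk2 went from 2.52 to 4.83, and Dkk2 over Wif1 from 46.6 to 7.40. These 7 pairs were picked with the ratios of the genes known, and the other pairs were not compared.

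Summed over families, the 5 Sfrp genes (with Frzb) had 4463 corneal and 5695 limbal reads, and the 3 Dkk genes 10401 and 4428. The Sfrp sum was higher in the limbus by 0.45 as log2 (0.39 to 0.50) and the Dkk sum lower by a log2 ratio of -1.14 (-1.19 to -1.09). Dkk3 made up most of the Dkk reads. In the Sfrp sum, Sfrp1 went from 4289 to 5128 normalized reads and Sfrp2 from 27.1 to 704. All 9 together came to 14885 and 10200 reads, a log2 ratio of -0.45 (-0.49 to -0.41), or -0.24 under total reads. Of the summed per-kilobase level, the Dkk genes held 74.7% in the cornea but 46.4% in the limbus, and the Sfrp genes 25.1% and 52.5%. Dkk3 alone went from 64.6% to 37.2%, Sfrp1 from 24.8% to 40.5%, and Sfrp2 from 0.318% to 11.3%. As a share of the antagonists' reads, Sfrp2 was 0.188% in the cornea (exact interval 0.125% to 0.272%) and 6.68% in the limbus (6.20% to 7.18%).

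**Figure D3:**
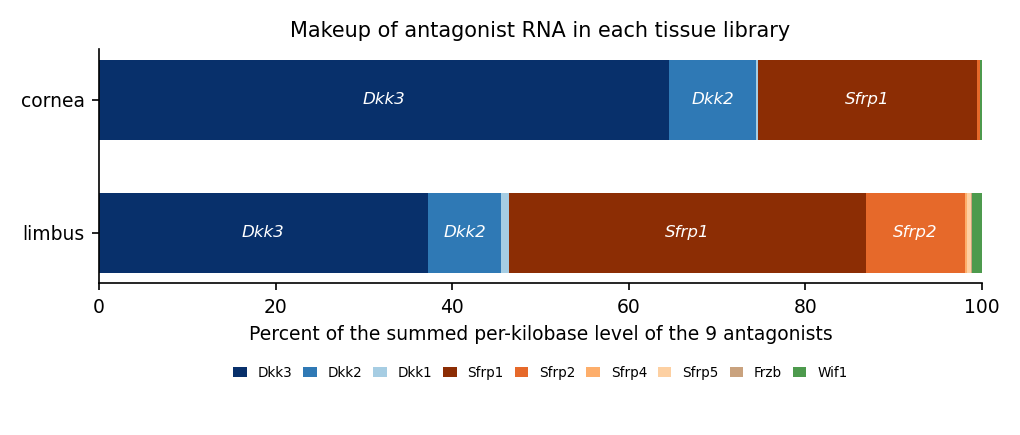
Share of each antagonist in the summed per-kilobase level of the 9 genes (percent) in the cornea and limbus libraries, Dkk genes in blue, Sfrp genes and Frzb in brown to orange, Wif1 in green. The blue part shrinks from 74.7% in the cornea to 46.4% in the limbus, and Sfrp2 is visible in the limbus at 11.3%.

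The named genes closest in normalized reads were sought for the 3 antagonists with the most reads, by Euclidean distance on the log2 scale over the 2 libraries. Tns4 (distance 0.0150) and Ivns1abp (0.0606) lay closest to Dkk3, Arpc1a (0.0195) and Pfdn5 (0.0342) to Sfrp1, and Acadsb (0.00604) and Atg5 (0.0134) to Dkk2. With 2 libraries such nearness describes level and ratio only.

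Other secreted antagonists of the pathway were also higher in the limbus where they could be tested. Of 8 listed genes, 4 had more than 3 reads in a library and all 4 had a limbal excess beyond counting error, 3 of them at least 2-fold, against 34.0% and 15.8% of all genes tested. Igfbp4, a growth factor binding protein that also inhibits Wnt signaling, rose from 1162 to 4042 reads, or 1.89 as log2 (1.80 to 1.99). Sostdc1, which like Sost binds Lrp co-receptors, rose from 16 to 100 reads (log2 2.74, 1.97 to 3.60), and Notum, the enzyme that strips the lipid from Wnt proteins, from 22 to 54 (1.39, 0.65 to 2.18). Dkkl1, a Dickkopf-like gene, had 123 and 161 reads (0.48, 0.14 to 0.83). Dkk4, the Dickkopf gene not counted among the 9, and Cer1 had 0 reads in both libraries, Sost had 0 corneal and 2 limbal reads, and Draxin 0 and 1.

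None of the 5 receptors listed for Dickkopf proteins was called at 2-fold, and beyond counting error 1 had a limbal and 3 a corneal excess. Of all genes tested, 15.8% and 7.83% had a 2-fold call towards limbus and cornea, and 34.0% and 36.5% a call beyond counting error. Lrp5 had 1156 corneal and 1400 limbal reads, or 0.37 as log2 (0.26 to 0.49), whereas Lrp6 had 1660 and 1204 (-0.37, -0.48 to -0.26). Lrp4, a receptor for Sost and Dkk1 outside the Frizzled complex, had 968 and 635 (-0.51, -0.66 to -0.37). Kremen1, the partner of Dkk1 and Dkk2, had 3473 and 2885 reads with a ratio as log2 of -0.17 (-0.24 to -0.10) that turned to 0.03 under total reads, and Kremen2 had 25 and 28 (0.26, -0.57 to 1.10), with no call.

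The counts in the remaining lists of the pathway stand against 34.0% of all genes tested with a limbal and 36.5% with a corneal excess. Of 12 Wnt ligands tested, 5 had a limbal and 5 a corneal excess, with a median of 0.05. Without Wnt2b and Wnt10b, which passed the read limit through the limbus only, 4 of 10 had a limbal and 5 a corneal excess, with a median of -0.27. Among the 13862 genes that passed in both libraries, 33.2% had a limbal and 40.6% a corneal excess, with a median of -0.05. Wnt5b, a ligand of beta-catenin-independent signaling, showed the largest 2-fold call with reads above the limit in both libraries (46 and 445 reads, log2 3.37, 2.93 to 3.84), and Wnt9a the lowest ratio (1178 and 410, -1.43, -1.59 to -1.26). Of 10 Frizzled receptors, 6 were higher in the limbus, led by Fzd3 (49 and 179, 1.96), and 3 in the cornea, led by Fzd4 (413 and 122, -1.66), and Fzd9, which passed through the limbus only, had no call. Of 5 membrane antagonists, 4 were higher in the limbus, led by Trabd2b, a protease that cuts Wnt proteins (27 and 138, 2.45), and none in the cornea. Of 11 beta-catenin targets tested, among them Notum, Rnf43, Znrf3 and Lgr5, which other lists hold too, 7 had a limbal and 1 a corneal excess, with Nkd2, a feedback inhibitor, at 9 and 423 reads (5.65, 4.71 to 6.79). Of 6 R-spondins and receptors tested, 2 had a limbal and 1 a corneal excess, the latter number falling to 0 under total reads. All but Lgr4 of these 6 passed through the limbus only, both limbal calls included, and could be called in 1 direction only, as could Lgr5 among the targets.

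**Figure D4:**
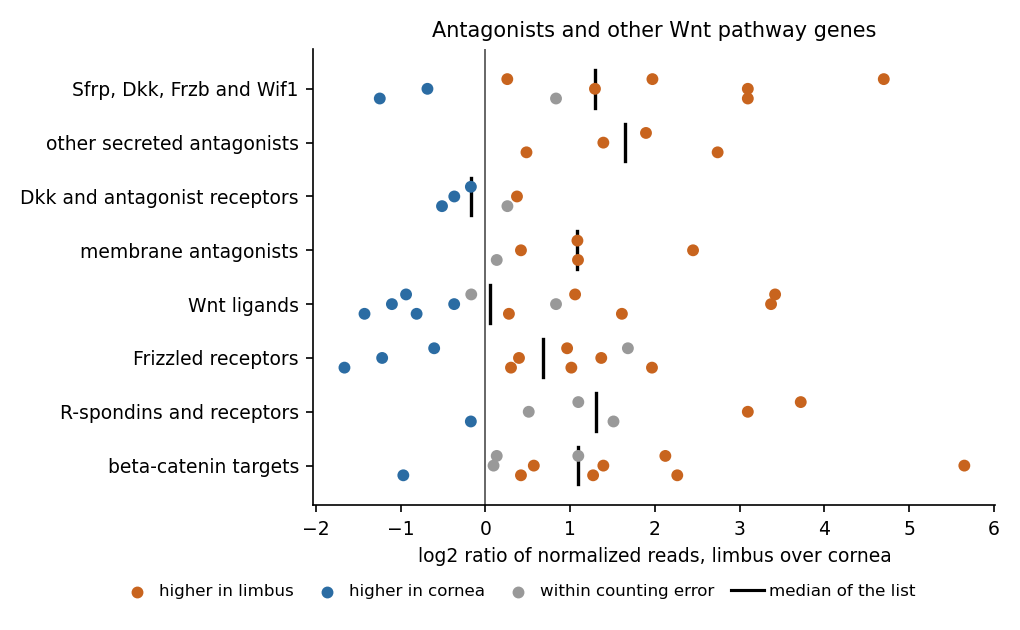
Log2 ratio of normalized reads, limbus over cornea, for each tested gene of the 8 lists (rows), with a library of 3 reads or fewer set to 3 reads; orange dots have a limbal and blue dots a corneal excess beyond counting error, grey dots are within it, and black bars are medians. The antagonists of the top row spread from -1.25 to 4.70 around 1.29, and the Wnt ligands lie on both sides of 0 around 0.05.

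Cell type genes moved along with the comparison, and their part in the ratios of the antagonists was not tested. Krt12, the keratin of the corneal epithelium, had 1137735 corneal and 233324 limbal reads, 6 of 7 genes of its list were higher in the cornea, and the sum of the list went from 95260 to 45203 RPM (reads of every 1000000 on named genes). Sums in RPM follow total reads and not the size factors used for the calls. A ratio of such sums thus lies 0.21 as log2 further towards the limbus. Of 8 limbal and conjunctival epithelial genes 7 were higher in the limbus (sum 3343 to 30140 RPM, Krt15 foremost). Limbal and scleral fibroblast genes were higher in 8 of 10 and lower in 2 (745 to 2495, Col1a1 foremost), keratocyte genes in 4 and 2 of 7 (2266 to 2790, with Dcn at a log2 ratio of 0.64 but Kera at -2.99 and Aldh1a1 at -2.16), and corneal endothelial genes in 5 and 2 of 7 (686 to 821). The endothelial sum was carried by Tjp1, itself lower in the limbus (log2 -0.61), whereas the median of its list was 1.53. Genes of blood vessels were higher in 9 of 9 (9.81 to 207, Plvap), of smooth muscle in 8 of 8 (4.75 to 122, Acta2, with Des at 0 in the cornea) and of skeletal muscle in 8 of 8 (3.83 to 535, Myh4). Schwann cell genes were higher in 8 of 8 (199 to 393, Mbp), lens genes in 7 of 8 (148 to 755, Cryab), pigment cell genes in 7 of 8 (12.5 to 77.8, Dct) and leukocyte genes in 7 of 8 (275 to 706, with a median log2 ratio of 1.79 and Itgam, which had the most reads, at 0.65). Trabecular meshwork and iris genes were higher in 5 and lower in 1 of 9 (296 to 391). Rspo4 of that list had 0 corneal reads but only 1 limbal read, and was not tested. The median log2 ratio of these meshwork and iris genes was 2.27, and Angptl7, which had the most reads, was at -0.50.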

How the data were processed

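Total RNA libraries of pooled limbal rims and corneal buttons were made from 100 ng of RNA with a stranded kit and sequenced as paired reads of 75 bases. The authors trimmed adaptors, used CLC Genomics Workbench 20 to map reads to GRCm38 (mm10), and normalized by a trimmed mean of M-values. What the authors deposited is 1 table of the comparison, with a mean normalized signal per gene, a log2 fold change of cornea over limbus with its standard error, and p-values. None of these comparison values is reported; the log2 fold change and standard error that the authors deposited served only to work back whole reads. Of 40904 rows, 17484 named no gene and were left out, 5978 named genes were at 0, and 17442 means were written as whole reads of 2 libraries (tolerance 0.05, largest distance from a whole number 0.0101), 109 corneal reads being worth 102 limbal reads. The mean left 1 pair of reads for 6143 genes and several for 11299. Each of several pairs was given the dispersion at which it met the deposited fold change. The pair whose predicted standard error then came closest to the deposited one was kept. For fold changes close to 0, fold change and standard error were matched together. Of the genes with several pairs, 773 needed the dispersion of their neighbors as well. The standard error was met to within 0.001 for 17397 genes. For the 9 antagonists it was met to within 1.04e-05. Sfrp1, Sfrp2, Dkk2 and Dkk3 allowed several pairs, and for them the next pair of reads missed by at least 0.000423. The other antagonists allowed 1 pair only. These reads are derived values, and the method was tested on simulated data. The table has no column for a numbered sample, so the 4 samples per tissue, numbered as sequencing lanes are, could not be compared with each other.

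Ratios used the Clopper-Pearson interval of the share of limbal reads, and levels exact Poisson intervals over the merged exons of GENCODE release M21. Genes with 3 reads or fewer in both libraries were not tested. The accession column of the table matched the gene column for 2 of 18554 accessions with a symbol, and the gene column was used. The antagonists, pathway lists and marker lists were chosen with earlier results of these data known. The result of 1 marker list is not reported here. The text names the 9 antagonists, the other secreted antagonists, the receptors of Dkk proteins, the most changed gene on each side of each further list (2-fold, over 3 reads in both libraries), the marker gene with the most reads per list and markers at 0, and the 2 closest genes to the 3 most abundant antagonists. Total-read scaling, a trimmed mean of M-values (30% and 5% trimmed), a pseudocount of 1 normalized read, a limit of 10 reads, a 99% interval, a mean of at least 10 and the longest transcript were run as alternatives. All was computed in Python 3.11.15 using scipy 1.17.1, numpy 2.4.6, pandas 2.3.3 and matplotlib 3.10.9.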

Additional observations from a re-analysis of the deposited data

How the results depend on the processing

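The 9 antagonists kept their direction and their call beyond counting error under total reads and a trimmed mean of M-values. With a pseudocount of 1 normalized read they kept their direction. The pseudocount does not enter the interval, so it could not change a call beyond counting error. With a limit of 10 reads in place of 3, Frzb was no longer tested, the bound of Sfrp4 and Sfrp5 fell from a log2 ratio of 1.38 to 0.24, and 3 antagonists in place of 5 were at least 2-fold higher in the limbus. With a 99% interval the number was also 3. Under total reads the share of genes at least 2-fold higher in the cornea went from 7.83% to 4.87%, and the number of R-spondins and receptors higher in the cornea from 1 to 0. The trimmed mean moved every log2 ratio by 0.02, too little to change the call of any called antagonist. Depth limits Frzb, Sfrp4, Sfrp5, Dkk1 and Wif1 most, each with fewer than 100 reads in either library. No paired analysis was possible because no column belongs to a numbered sample, and for the same reason no replicate could be left out.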

Other observations

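Some further genes of the pathway were found in the limbal library and scarcely in the corneal one, as Sfrp4 and Sfrp5 were, and were picked out after their values were seen. Wnt2b, a ligand of the canonical pathway, had 0 corneal and 30 limbal reads and was at least 3.32-fold higher with the cornea set to 3 reads. Rspo1, a secreted protein that strengthens Wnt signaling, had 0 and 37 reads, at least 4.17-fold higher. Lgr6, a receptor of R-spondins, had 1 corneal and 24 limbal reads, and Lgr5, its relative and a stem cell marker of the gut, had 0 and 6, with no call. Axin2, a feedback inhibitor and a common readout of beta-catenin signaling, had 106 and 432 reads, a log2 ratio of 2.12 (1.81 to 2.44), whereas Ccnd1, the cyclin D1 gene, had 11165 and 5338 (-0.97, -1.02 to -0.92). Wnt4 was among the most abundant ligands, with 7689 and 8718 reads (0.28, 0.23 to 0.32).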
